A study of Homo sapiens with 12 samples.

Results

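The difference between 2 human lung cell lines in their response to SP600125 was described, a response being the change in messenger RNA between treated and untreated cells of a line. SP600125 inhibits the Jun N-terminal kinases (JNK). A549 cells come from a lung adenocarcinoma, whereas BEAS-2B (B2B) derives from bronchial epithelium and was immortalised with SV40 genes. A549_SP600125 and B2B_SP600125 cells received 50 µM SP600125 for 72 h, and A549_NT and B2B_NT are the untreated cells. Each of the 4 groups had 2 libraries, which makes 8 of the 12 libraries of the series. The other 4 libraries come from cells given 10 µM SR11302, a blocker of the transcription factor AP-1. Each line is a single established line, and the sources do not say whether the 2 libraries of a group came from separate cultures, so p-values measure the spread between these libraries. The controls are untreated by their labels, but figure legends of the study name DMSO, so whether they received solvent is unknown here.

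For each of 16373 genes tested, out of 26485 gene symbols listed, the log2 fold change of SP600125 against NT in B2B was subtracted from that in A549. This interaction is negative where the A549 effect lies below the B2B effect. A gene was called where edgeR's quasi-likelihood test gave an adjusted p (Benjamini-Hochberg) under 0.05 and the absolute log2 value was at least 0.5. Genes moving in opposite directions are those called in the interaction and in each line, with opposite signs. There were 391 of them, 2.39% of the genes tested. Levels are given for each library as CPM, the counts of a gene relative to the scaled library size, and log2 differences are given ± SE (n = 2 libraries per group).

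AP-1 is a family of dimers of Jun with Fos proteins that binds promoters and enhancers and is switched on by growth factor and stress signals. JNK phosphorylates Jun in the activation domain, and the JUN, FOS, EGR and NR4A genes belong to the immediate early genes, which cells transcribe within minutes of a stimulus without new protein synthesis. In epithelial cells AP-1 is known for its part in proliferation, in wound repair and in transcription of matrix and adhesion genes. SP600125 is a planar anthrapyrazolone that is also known to bind other kinases and the aryl hydrocarbon receptor.

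Reads counted in genes ranged between 13969766 and 17459734 in the SP600125 libraries and between 19868320 and 24917854 in the NT libraries. Reads that fell in no counted feature made up 15.1 to 17.7% of the tallied reads in SP600125 libraries and 23.8 to 25.9% in NT libraries of both lines. The part of this difference in the results was not tested. A549 libraries held the epithelial transcripts KRT8 and KRT18 and, among alveolar type 2 markers, ABCA3 at 54.5 to 66.8 CPM but hardly any SFTPA1, SFTPC or NKX2-1. B2B libraries held ABCA3 as well, at 45.0 to 77.0 CPM, and NKX2-1 at 1.52 to 2.81 CPM. They held KRT8 and KRT18 at lower levels than A549, 206 to 495 CPM. SFTPD stood at 3.29 and 4.13 CPM in A549_SP600125, against 0.45 and 0.34 CPM in A549_NT. B2B libraries held the basal keratin KRT17 but hardly any KRT5, KRT14 or TP63 and little of the epithelial cadherin CDH1. Of 12 lymphocyte, myeloid, red cell and endothelial markers, 2 to 4 reached 1 CPM in the A549 libraries and 1 to 4 in the B2B libraries. Their sum was 16.8 to 18.0 CPM in A549_SP600125, against 5.52 to 5.99 CPM in A549_NT, and 9.34 to 13.0 CPM in B2B_SP600125, against 3.29 to 3.80 CPM in B2B_NT, and its part in the results was not tested. Endothelial genes made up much of the higher sum, with PECAM1 at 6.80 and 6.06 CPM in A549_SP600125, against 0.05 and 0.20 CPM in A549_NT, and at 3.95 and 5.30 CPM in B2B_SP600125, against 0 in both B2B_NT libraries. VWF and CDH5 were likewise higher with SP600125 in both lines, while the lymphocyte genes PTPRC, CD3E and MS4A1 were at or near 0 in all 8 libraries. Markers of the 2 lines matched the labels, but the second NT library of each line held a little of the other line's transcripts. ALDH1A1, an A549 marker, stood at 46.0 CPM in the second and 1.44 CPM in the first B2B_NT library. SPARC, a B2B marker, stood at 6.50 CPM in the second and 0.30 CPM in the first A549_NT library. Some results are therefore also given without these libraries. Results that are not given in this way can change without them as well, among them the set of genes moving in opposite directions.

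SP600125 changed a large share of the transcriptome in each line, and the lines differed in 4121 genes, 25.2% of those tested. The interaction was called higher for 1984 genes (12.1%) and lower for 2137 (13.1%). SP600125 against NT called 7997 genes in A549 (48.8%), 3910 higher (23.9%) and 4087 lower (25.0%). It called 7174 genes in B2B (43.8%), 3478 higher (21.2%) and 3696 lower (22.6%). Without TMM scaling the median B2B change moved to 0.15, against 0.01 with it, and the share of B2B calls that were higher was 59.1% against 48.5%. Without the first A549_SP600125 library 2745 genes were called in the interaction, and without the second library of both NT groups 2264 were.

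Opposite movement made up a small part of the interaction calls. Of the 4121 genes, 1525 were called in A549 and not in B2B, 1159 in B2B and not in A549, and 706 in both lines in the same direction. Another 340 were called in neither line alone. The remaining 391 moved in opposite directions. Of these, 217 rose in A549 and fell in B2B (1.33% of genes tested), with median log2 changes of 0.98 in A549 and -1.16 in B2B. The other 174 fell in A549 and rose in B2B (1.06%), with medians of -0.95 in A549 and 0.97 in B2B. These medians follow from the rule and carry no test.

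**Figure D1:**
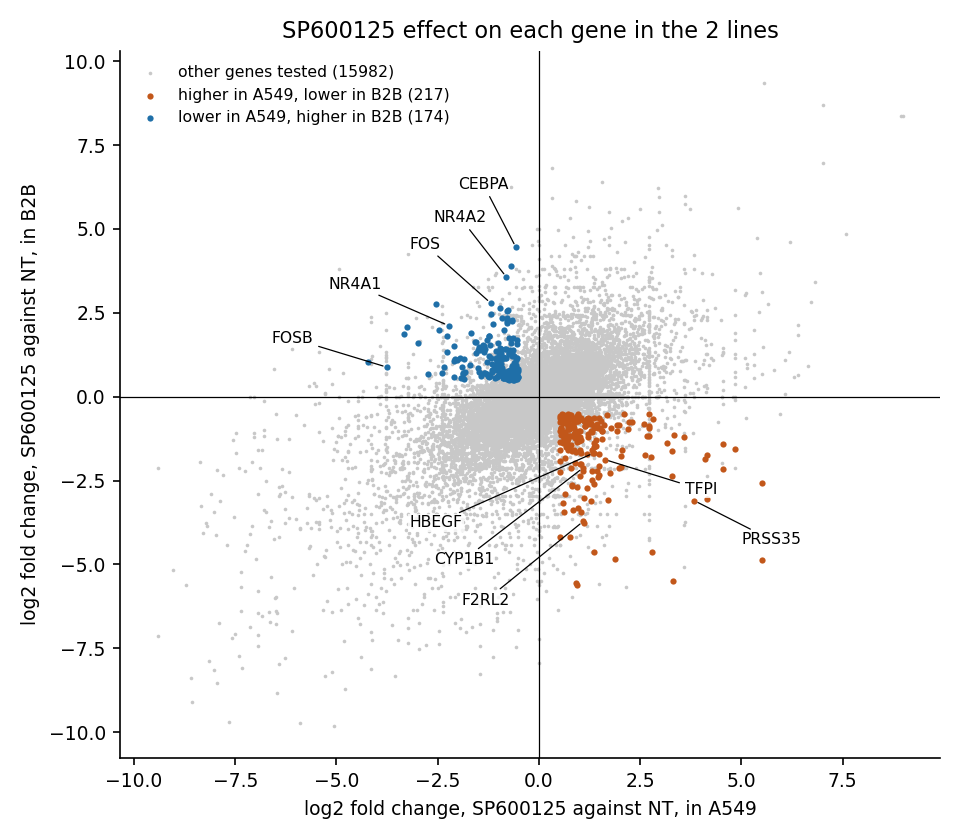
Each point is 1 of the 16373 genes tested, placed by its log2 fold change with SP600125 against NT in A549 (horizontal) and in B2B (vertical). The 217 orange genes rose in A549 and fell in B2B, the 174 blue genes fell in A549 and rose in B2B, and the other genes tested are grey.

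The opposite genes differed in how firmly they were placed. In 158 of the 391 the call held in every fit that left out 1 of the 8 libraries, 180 reached a mean of 10 CPM in the higher group of each line, and 96 met both conditions. Opposite genes just inside the fold minimum of 0.5 included ABCA7, at -0.62 in A549 and 0.50 in B2B, and just outside it lay MCM6, at -0.91 in A549 and 0.499 in B2B. A further 264 genes had opposite signs and adjusted p under 0.05 in all 3 tests but a smaller fold. Of the 217 genes that rose in A549, 37 had 3 reads or fewer in both libraries of at least 1 group, as had 8 of the 174 that fell. The second B2B_NT library was over 3 times the first in 8 of the 217 and 1 of the 174, and none of those 8 stayed in its group without that library.

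The 2 sets of opposite genes also differed in base composition. Median GC content of the transcript was 42.9% in genes that rose in A549 and fell in B2B, 55.9% in genes that fell in A549 and rose in B2B, and 48.8% over all genes tested. Across 15773 genes, which share the same libraries and are not independent, Spearman's rank correlation between GC content and the interaction was -0.33, with -0.39 for the change in A549 and -0.12 for that in B2B. With an offset for GC content 152 of the 217 and 89 of the 174 genes kept their call in both lines, and 217 and 156 kept both signs. The part of base composition in these results was not tested further.

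FOS and FOSB, which encode Fos partners of Jun, were the 2 AP-1 subunits that moved in opposite directions. Their promoters, 250 bases before to 50 bases after the RefSeq start on the plus strand of GRCh38.p14, are shown because both held 1 TGACG, the core of the site TGACGTCA that ATF and CREB factors bind, and 1 TATAAA. Capitals mark these letters. Over the 12346 tested genes with a promoter in the RefSeq table TGACG stood on either strand in 32.9% and TATAAA in 6.31%. Of the 119 promoters of genes that fell in A549 and rose in B2B, 31.1% held TGACG and 10.1% TATAAA, and of the 166 of genes that rose in A549 and fell in B2B, 22.9% held TGACG and 8.43% TATAAA. The AP-1 site, TGAGTCA, stood in 7 of the 119 promoters, 6 of the 166 and 3.27% of all. TGACG also lies within TGACGTCA, and a match is a description of letters, not a bound site.
FOS promoter, chr14:75278578-75278877 (+): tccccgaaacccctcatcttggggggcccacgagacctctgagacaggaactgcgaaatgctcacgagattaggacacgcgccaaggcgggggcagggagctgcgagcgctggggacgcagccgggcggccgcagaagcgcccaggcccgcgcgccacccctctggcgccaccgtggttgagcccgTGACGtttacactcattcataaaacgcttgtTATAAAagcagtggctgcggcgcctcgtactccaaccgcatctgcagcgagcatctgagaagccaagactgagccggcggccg
FOSB promoter, chr19:45467746-45468045 (+): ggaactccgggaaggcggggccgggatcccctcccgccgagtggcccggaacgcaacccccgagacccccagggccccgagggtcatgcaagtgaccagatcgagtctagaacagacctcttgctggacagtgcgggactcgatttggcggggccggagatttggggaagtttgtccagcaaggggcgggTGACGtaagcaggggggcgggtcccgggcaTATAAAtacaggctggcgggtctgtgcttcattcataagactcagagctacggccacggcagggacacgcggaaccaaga

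FOS (chromosome 14, 75278826 to 75282230, hg38) stood at 141 and 138 CPM in A549_SP600125, against 323 and 311 CPM in A549_NT. In B2B it stood at 69.4 and 46.4 CPM with SP600125, against 7.85 and 8.92 CPM in B2B_NT. Treated A549 cells thus held less FOS than untreated ones and treated B2B cells more, with no overlap in either line, yet treated B2B remained below treated A549. The log2 changes were -1.19 ± 0.20 in A549 and 2.79 ± 0.23 in B2B, and the interaction was -3.98 ± 0.30 (edgeR adjusted p = 1.70e-06). FOSB (chromosome 19, 45467995 to 45475179) fell to 21.2 and 18.6 CPM in A549_SP600125, against 255 and 279.9 CPM in A549_NT. The much lower B2B level was 6.96 and 6.82 CPM with SP600125 and 3.35 and 4.11 CPM without. The changes in FOSB were -3.75 ± 0.15 in A549 and 0.88 ± 0.18 in B2B, and the interaction was -4.63 ± 0.23 (edgeR adjusted p = 6.22e-08). Both genes kept opposite calls in all 8 fits that left out a library.

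The other AP-1 subunits did not split in this way. JUNB, a Jun protein induced with FOS, rose in B2B, to 61.1 and 46.6 CPM with SP600125 against 14.8 and 16.9 CPM in B2B_NT, while A549 held 114 and 107 CPM with SP600125 and 129 and 106 CPM without. Its interaction was -1.85 ± 0.21 (edgeR adjusted p = 4.42e-05). FOSL2, a Fra protein, fell in both lines, by a larger amount in A549, with an interaction of -0.74 ± 0.14. JUN fell in both lines, with log2 changes of -1.55 ± 0.13 in A549 and -1.30 ± 0.12 in B2B, and its interaction of -0.25 ± 0.17 missed the threshold (edgeR adjusted p = 0.310). FOSL1, the other Fra protein, whose reads may be shared with a copy, fell steeply in both, to 10.7 and 11.0 CPM in A549_SP600125 against 178 and 174 CPM in A549_NT and to 8.78 and 11.6 CPM in B2B_SP600125 against 93.4 and 98.9 CPM in B2B_NT, and its interaction of -0.77 ± 0.39 missed the threshold as well (edgeR adjusted p = 0.165). JUND, the most constitutive Jun protein, had an interaction of -0.54 ± 0.17 (edgeR adjusted p = 0.0329) that was 0.06 and not called with the GC offset and kept its call in 3 of the 8 fits that left out a library. In all, 5 of 7 subunits were called lower in the interaction and none higher, against 13.1% and 12.1% of all genes. In A549 alone 6 of 7 fell and none rose, against 25.0% and 23.9% of all genes. In B2B 3 rose and 3 fell, against 21.2% and 22.6%.

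Immediate early genes were called lower in the interaction more often than genes at large. Of 19 tested, 14 were called lower in the interaction and none higher, and the median interaction was -1.15, against 13.1% called lower and a median of -0.01 over all genes. In A549 13 fell and 1 rose, against 25.0% and 23.9% of all genes. In B2B 3 fell and 7 rose, against 22.6% and 21.2%, and 9 were not called. NR4A1, NR4A2 and IER3 were the 3 that moved in opposite directions. MYC and KLF6 fell by a similar amount in both lines, with interactions of 0.02 ± 0.21 and -0.03 ± 0.16 that missed the threshold.

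NR4A1 (chromosome 12, 52022832 to 52059507), an orphan nuclear receptor induced by many growth and stress signals, stood at 73.5 and 68.7 CPM in A549_SP600125, against 359.8 and 308 CPM in A549_NT. In B2B it stood at 34.4 and 27.6 CPM with SP600125, against 6.13 and 8.10 CPM in B2B_NT. The gap between the lines thus narrowed from both sides. Its log2 changes were -2.23 ± 0.14 in A549 and 2.12 ± 0.16 in B2B, with an interaction of -4.35 ± 0.22 (edgeR adjusted p = 6.22e-08). NR4A2 (chromosome 2, 156324437 to 156342348), a receptor of the same family, stood at 28.4 and 30.4 CPM in A549_SP600125, against 52.8 and 49.8 CPM in A549_NT, and at 19.5 and 13.2 CPM in B2B_SP600125, against 1.29 and 1.47 CPM in B2B_NT. The change was larger in B2B, at 3.56 ± 0.26, than in A549, at -0.80 ± 0.19, and the interaction was -4.37 ± 0.32 (edgeR adjusted p = 1.39e-06). NR4A3, the third member, rose in B2B to 23.4 and 19.2 CPM, against 1.44 and 1.71 CPM in B2B_NT, and was not called in A549, at 6.78 and 6.69 CPM with SP600125 and 9.06 and 9.72 CPM without.

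IER3, a stress-induced survival gene, stood at 113 and 119 CPM in A549_SP600125, against 206 and 183 CPM in A549_NT, and at 109 and 114 CPM in B2B_SP600125, against 73.6 and 83.1 CPM in B2B_NT. Its B2B change of 0.50 ± 0.11 lay near the fold minimum, and it kept its opposite call in 5 of the 8 fits that left out a library. Zinc-finger factors of the EGR family and the mRNA-decay factor ZFP36 were called in the interaction without opposite calls. EGR1 had an interaction of -1.46 ± 0.23 and ZFP36 one of -1.96 ± 0.16, with called falls in A549 and no call in B2B. ATF3, a bZIP stress factor, moved in opposite directions, at 32.6 and 31.8 CPM in A549_SP600125 against 49.6 and 48.2 CPM in A549_NT and 27.3 and 27.2 CPM in B2B_SP600125 against 14.8 and 15.7 CPM in B2B_NT. The interaction for ATF3 was -1.44 ± 0.20.

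Among 29 genes of the JNK and MAPK pathways and their feedback, 12 were called lower in the interaction and 3 higher, against 13.1% and 12.1% of all genes. Without the second library of both NT groups 11 were called lower and 0 higher. SPRY2 (chromosome 13, 80335976 to 80341126), a feedback inhibitor of receptor tyrosine kinase signalling, stood at 10.1 and 11.4 CPM in A549_SP600125, against 21.7 and 21.3 CPM in A549_NT, and at 33.6 and 33.4 CPM in B2B_SP600125, against 16.9 and 17.6 CPM in B2B_NT. It fell in A549 and rose in B2B by nearly the same amount, and the interaction was -1.96 ± 0.18 (edgeR adjusted p = 8.67e-06). DUSP16, a phosphatase that inactivates JNK and p38, had log2 changes of -0.68 ± 0.10 in A549 and 0.57 ± 0.11 in B2B, and MAPK8IP2, a JNK scaffold at 1 to 5 CPM, had changes of -1.04 ± 0.25 in A549 and 1.04 ± 0.30 in B2B. DUSP8, another phosphatase of JNK and p38 whose reads may be shared with a copy, instead fell in both lines, far more in A549, with an interaction of -3.66 ± 0.30. DUSP6, the ERK phosphatase, rose in B2B and was not called in A549, with an interaction of -1.48 ± 0.27.

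**Figure D2:**
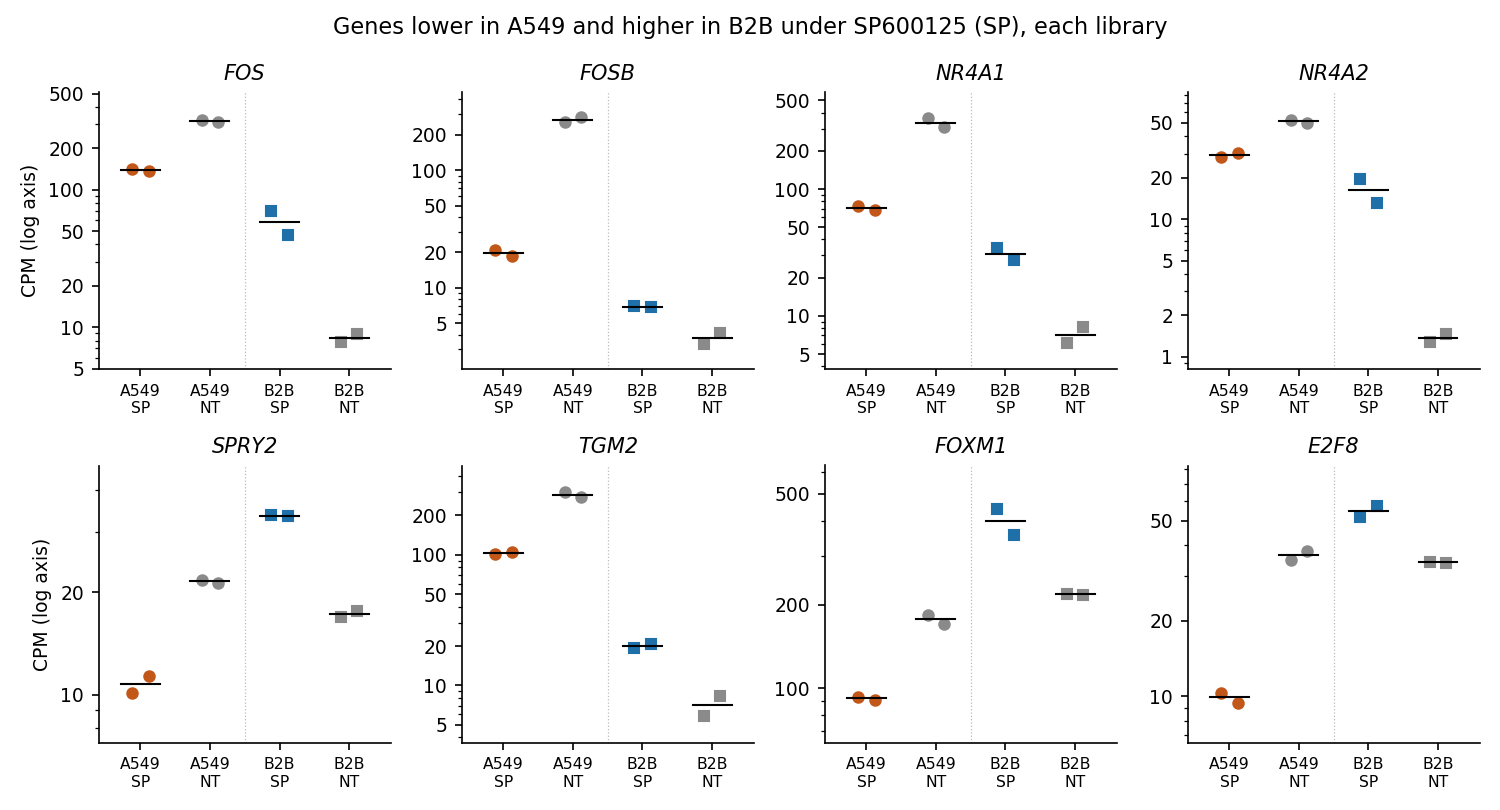
CPM on a log axis of 8 genes that fell in A549 and rose in B2B under SP600125 (SP), with 1 point per library (circles for A549, squares for B2B, grey for NT) and a line at the mean of 2 libraries. In each gene the 2 SP600125 libraries lie below the 2 NT libraries in A549 and above them in B2B. FOS, for example, stood at 141 and 138 CPM in A549_SP600125 and 323 and 311 CPM in A549_NT.

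Genes of DNA replication had the largest share of members called in the interaction among the 43 lists examined. Of 48 tested, 40 were called lower and none higher, against 13.1% and 12.1% of all genes. The interactions lay between -2.18 and 0.02. In A549 33 fell and none rose, against 25.0% and 23.9% of all genes, with a median of -0.79. In B2B 4 fell and 13 rose, against 22.6% and 21.2%, with a median of 0.21. The median interaction was -1.03. With the GC offset 41 were called lower, and leaving out 1 library at a time gave 35 to 38. In these bulk libraries fewer cycling cells and less RNA per cell cannot be told apart.

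MCM3, a subunit of the replicative helicase, stood at 130.1 and 131 CPM in A549_SP600125, against 196 and 182 CPM in A549_NT, and at 395 and 421 CPM in B2B_SP600125, against 265 and 268 CPM in B2B_NT. Its log2 changes were -0.53 ± 0.12 in A549 and 0.62 ± 0.12 in B2B, and the interaction was -1.15 ± 0.17 (edgeR adjusted p = 3.39e-04). GINS3, another part of that helicase, had changes of -0.50 ± 0.14 in A549 and 0.81 ± 0.13 in B2B, and TIMELESS, which protects the fork, had changes of -0.62 ± 0.11 in A549 and 0.52 ± 0.11 in B2B. These were the 3 replication genes that moved in opposite directions, and each lost the opposite call in 1 or 2 of the 8 fits that left out a library. POLD1, the catalytic subunit of DNA polymerase delta, fell in both lines and more in A549, to 24.3 and 26.1 CPM in A549_SP600125 against 161 and 149 CPM in A549_NT and 62.4 and 52.8 CPM in B2B_SP600125 against 106 and 113 CPM in B2B_NT. PCNA, the sliding clamp, rose in B2B and was not called in A549, with an interaction of -0.72 ± 0.15.

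Mitotic genes shifted the same way. Of 45 tested, 31 were called lower in the interaction and none higher, against 13.1% and 12.1% of all genes, with a median of -0.78. In A549 20 fell and 1 rose, against 25.0% and 23.9% of all genes. In B2B 3 fell and 16 rose, against 22.6% and 21.2%. The count of 31 was 19 without the second library of both NT groups and 42 with the GC offset. KIF2C, a kinesin that depolymerises microtubules, stood at 55.1 and 53.5 CPM in A549_SP600125, against 80.1 and 78.3 CPM in A549_NT, and at 292 and 225 CPM in B2B_SP600125, against 179 and 183 CPM in B2B_NT. KIF4A, another mitotic kinesin, also moved in opposite directions, but its reads may be shared with a near copy. MKI67, the gene of the proliferation antigen Ki-67, stood at 457 and 422 CPM in A549_SP600125 and 1132 and 1285 CPM in A549_NT, while B2B held 1425 and 1225 CPM with SP600125 and 1287 and 1248 CPM without. MKI67 fell in A549 and was not called in B2B, and the interaction was -1.52 ± 0.19 (edgeR adjusted p = 1.01e-04).

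Regulators of the cell cycle held clearer examples. FOXM1 (chromosome 12, 2857680 to 2877174), the factor that drives transcription of G2 and mitotic genes, stood at 93.1 and 91.1 CPM in A549_SP600125, against 184 and 171 CPM in A549_NT, and at 443 and 356 CPM in B2B_SP600125, against 219 and 216 CPM in B2B_NT. The level in B2B exceeded that in A549 without SP600125 and more so with it. Its log2 changes were -0.95 ± 0.16 in A549 and 0.88 ± 0.16 in B2B, and the interaction was -1.82 ± 0.23 (edgeR adjusted p = 8.62e-05). E2F8, a repressor of the E2F family, fell to 10.4 and 9.44 CPM in A549_SP600125, against 34.9 and 37.8 CPM in A549_NT, and rose to 51.5 and 57.3 CPM in B2B_SP600125, against 34.2 and 34.0 CPM in B2B_NT. CDK2, the kinase of the G1 to S transition, had log2 changes of -0.76 ± 0.12 in A549 and 0.71 ± 0.12 in B2B. All 3 kept opposite calls in every fit that left out a library. E2F1, an activator of S-phase genes, fell in A549 and was not called in B2B, with an interaction of -2.14 ± 0.19. Of the 22 regulators 8 were called lower in the interaction and 1 higher, against 13.1% and 12.1% of all genes, and without the second library of both NT groups 5 were called lower.

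**Figure D3:**
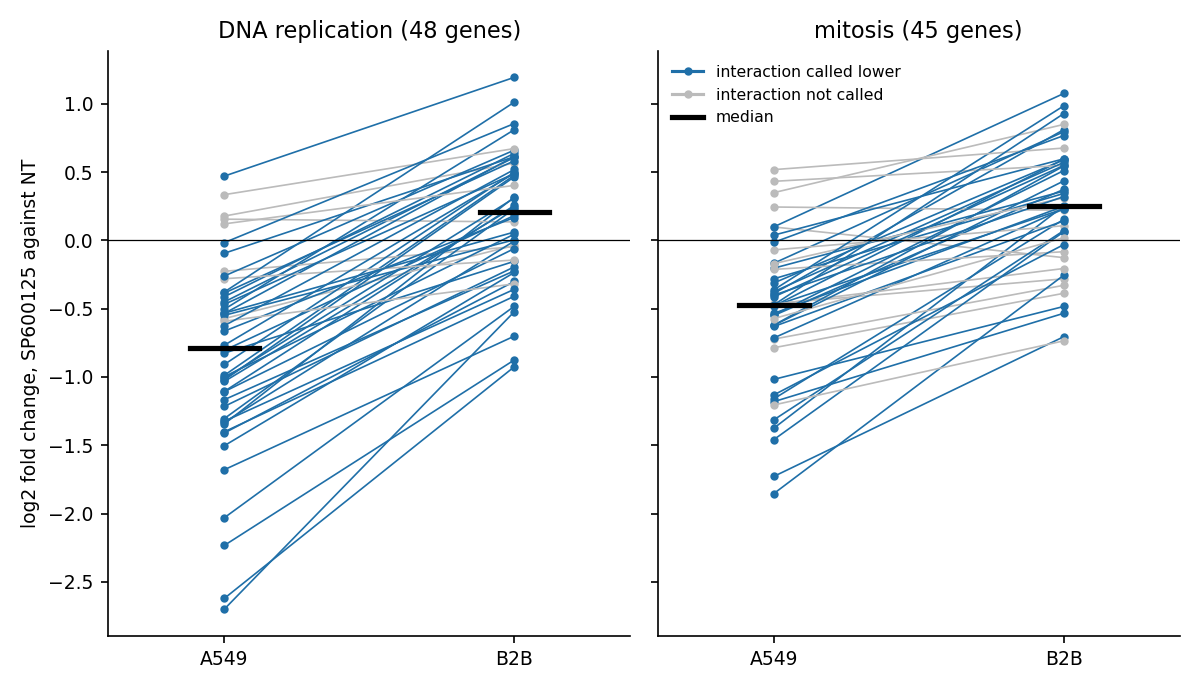
Log2 fold change with SP600125 against NT for each of 48 DNA replication genes (left) and 45 mitotic genes (right), with a line joining a gene's value in A549 to its value in B2B and a black bar at the median. Nearly all lines rise to the right, and the medians are -0.79 in A549 and 0.21 in B2B for replication and -0.47 in A549 and 0.25 in B2B for mitosis.

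Other genes that fell in A549 and rose in B2B encode junction, signalling and crosslinking proteins. TGM2 (chromosome 20, 38127385 to 38166578), a transglutaminase that crosslinks proteins, stood at 101 and 104 CPM in A549_SP600125, against 300.0 and 274 CPM in A549_NT, and at 19.2 and 20.8 CPM in B2B_SP600125, against 5.84 and 8.31 CPM in B2B_NT. The interaction was -2.97 ± 0.22 (edgeR adjusted p = 1.55e-06). LSR, a receptor found at tricellular junctions, had log2 changes of -1.22 ± 0.16 in A549 and 1.55 ± 0.16 in B2B. SEMA6B, a membrane semaphorin, had changes of -1.55 ± 0.16 in A549 and 1.30 ± 0.16 in B2B. RNF157, an E3 ubiquitin ligase, had changes of -1.23 ± 0.15 in A549 and 1.81 ± 0.13 in B2B. As in all 174 genes of this direction, the SP600125 and NT libraries of these 4 did not overlap in either line. The choice of genes largely fixes this.

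CEBPD, a bZIP factor of the C/EBP family, stood at 18.3 and 20.3 CPM in A549_SP600125, against 37.3 and 30.0 CPM in A549_NT, and at 41.3 and 31.9 CPM in B2B_SP600125, against 15.9 and 17.3 CPM in B2B_NT. CEBPA, its relative known for lung epithelial differentiation, stood at 11.0 and 10.7 CPM in A549_SP600125, against 18.0 and 14.2 CPM in A549_NT, and at 7.22 and 10.3 CPM in B2B_SP600125, against 0.192 and 0.570 CPM in B2B_NT. The CEBPA interaction of -5.02 ± 0.44 rested mostly on the B2B rise, and its opposite call held in 5 of the 8 fits that left out a library. COBL, an actin nucleator, behaved alike, at 30.8 and 29.3 CPM in A549_SP600125 against 48.9 and 48.7 CPM in A549_NT and 15.9 and 14.4 CPM in B2B_SP600125 against 0.814 and 1.18 CPM in B2B_NT. LRRC20 had an interaction of -1.95 ± 0.21, and C1QTNF6, a secreted C1q and TNF related protein, one of -2.23 ± 0.21.

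Genes that rose in A549 and fell in B2B included TFPI (chromosome 2, 187464230 to 187565760), the inhibitor of the tissue factor pathway of coagulation. It stood at 183 and 186 CPM in A549_SP600125, against 57.6 and 61.9 CPM in A549_NT, and at 45.4 and 57.4 CPM in B2B_SP600125, against 191 and 186 CPM in B2B_NT. The order of the 2 lines was thus reversed. The log2 changes were 1.63 ± 0.28 in A549 and -1.88 ± 0.28 in B2B, with an interaction of 3.50 ± 0.39 (edgeR adjusted p = 4.42e-05). F2RL2, a thrombin receptor, stood at 98.2 and 98.9 CPM in A549_SP600125, against 45.0 and 47.2 CPM in A549_NT, and fell in B2B, at 0.884 and 1.76 CPM with SP600125 against 17.0 and 17.3 CPM in B2B_NT.

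HBEGF (chromosome 5, 140332843 to 140346603), a ligand of the epidermal growth factor receptor, stood at 13.1 and 11.4 CPM in A549_SP600125, against 5.22 and 4.35 CPM in A549_NT. In B2B, the line with more of it, it stood at 41.8 and 44.5 CPM with SP600125, against 134 and 143 CPM in B2B_NT. Its interaction was 3.03 ± 0.22 (edgeR adjusted p = 1.39e-06). LRIG1, which restrains the same receptor family, moved with it, at 27.7 and 24.4 CPM in A549_SP600125 against 9.62 and 10.8 CPM in A549_NT and 10.8 and 10.2 CPM in B2B_SP600125 against 27.4 and 27.8 CPM in B2B_NT. A ligand and a restraint of 1 receptor family thus shifted in the same direction in each line. SEMA3C, a secreted semaphorin, had log2 changes of 1.05 ± 0.15 in A549 and -1.69 ± 0.16 in B2B. ARHGAP18, a GTPase-activating protein, had changes of 1.92 ± 0.21 in A549 and -1.03 ± 0.22 in B2B.

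The aryl hydrocarbon receptor senses planar aromatic compounds, and 3 genes of its pathway rose in A549 and fell in B2B. CYP1B1 (chromosome 2, 38066973 to 38109902), a cytochrome P450 that this receptor induces, stood at 321 and 330.1 CPM in A549_SP600125, against 149 and 156 CPM in A549_NT, and at 74.2 and 76.6 CPM in B2B_SP600125, against 324 and 331 CPM in B2B_NT. Treated A549 reached the level of untreated B2B while treated B2B lay below both A549 groups. The log2 changes were 1.09 ± 0.11 in A549 and -2.12 ± 0.12 in B2B, and the interaction was 3.21 ± 0.16 (edgeR adjusted p = 6.22e-08). AHRR, the receptor's repressor and target, stood at 9.02 and 8.62 CPM in A549_SP600125, against 5.17 and 4.46 CPM in A549_NT, and at 26.5 and 25.3 CPM in B2B_SP600125, against 44.1 and 43.4 CPM in B2B_NT. AHR, the receptor itself, had changes of 0.77 ± 0.19 in A549 and -0.54 ± 0.18 in B2B and kept the opposite call in 5 of 8 fits that left out a library.

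Not all targets of the receptor split. CYP1A1, its best known target, had an interaction of -0.94 ± 0.55, which missed the threshold, with a called rise in B2B and no call in A549. NQO1 rose in both lines. Of 12 pathway genes tested, 5 were called higher in the interaction and none lower, against 12.1% and 13.1% of all genes. Of the 5, ALDH3A1 stood at 7.45 CPM in the second B2B_NT library and 0.287 CPM in the first. It lost its call without that second library. The count of 5 was 3 without the second A549_SP600125, the second B2B_SP600125 or the second B2B_NT library. The AHRR promoter, on the plus strand of GRCh38.p14, is shown because it held 1 GCGTG, the core of the receptor's binding site, in capitals. GCGTG stood on either strand in 49.1% of the 12346 promoters, 45.8% of the 166 of genes that rose in A549 and 41.2% of the 119 of genes that fell, so the letters are common.
AHRR promoter, chr5:321464-321763 (+): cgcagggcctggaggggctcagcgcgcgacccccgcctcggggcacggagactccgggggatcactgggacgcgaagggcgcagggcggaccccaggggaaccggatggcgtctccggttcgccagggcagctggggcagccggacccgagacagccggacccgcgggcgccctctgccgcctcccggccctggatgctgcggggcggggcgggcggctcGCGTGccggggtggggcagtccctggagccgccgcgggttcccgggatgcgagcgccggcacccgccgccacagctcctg

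**Figure D4:**
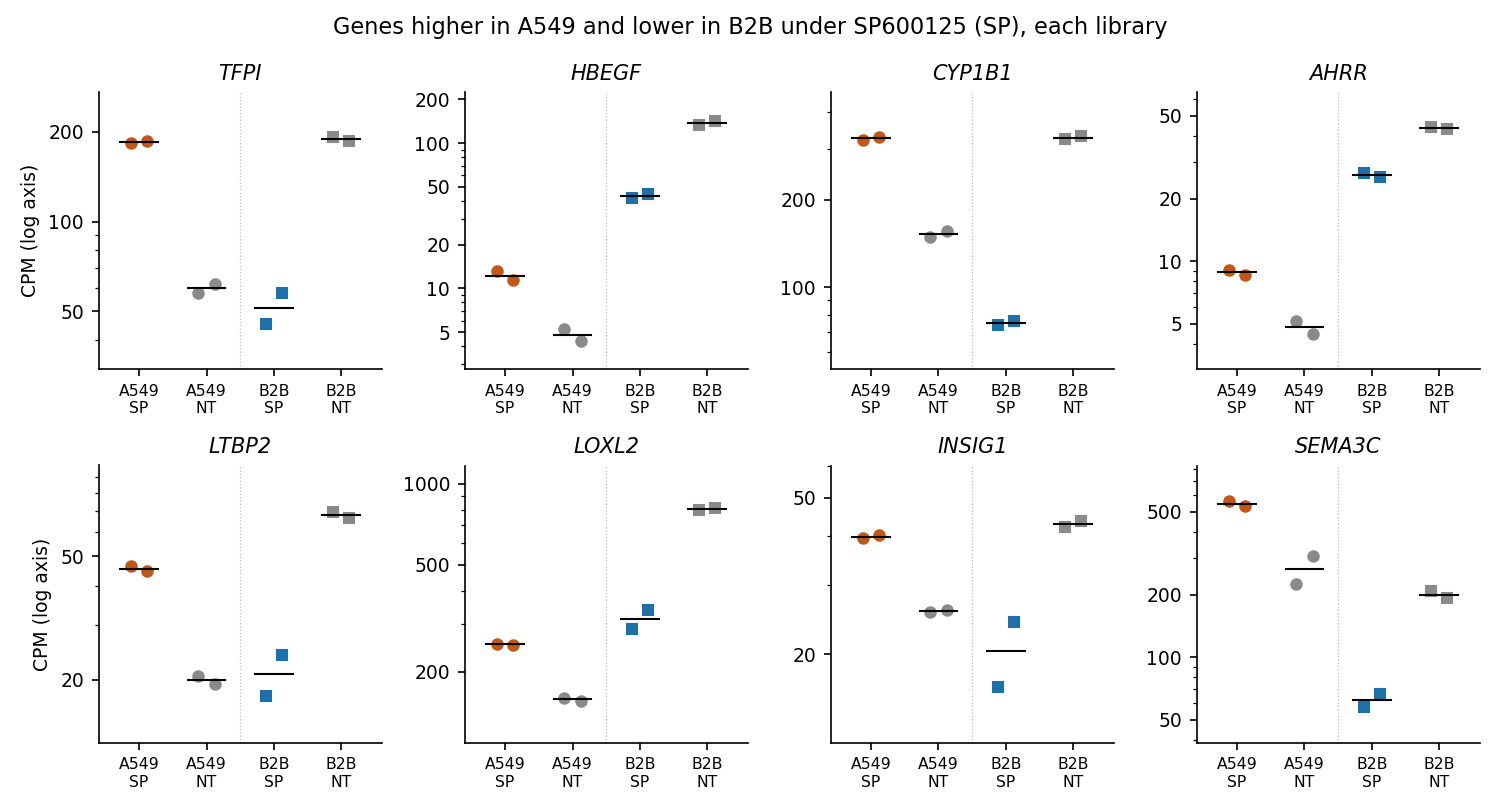
CPM on a log axis of 8 genes that rose in A549 and fell in B2B under SP600125 (SP), with 1 point per library (circles for A549, squares for B2B, grey for NT) and a line at the mean of 2 libraries. In each gene the 2 SP600125 libraries lie above the 2 NT libraries in A549 and below them in B2B. TFPI, for example, stood at 183 and 186 CPM in A549_SP600125 and 57.6 and 61.9 CPM in A549_NT.

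Matrix genes leaned the other way. Of 45 tested, 27 were called higher in the interaction and 2 lower, against 12.1% and 13.1% of all genes, with a median of 1.19. The difference lay mostly in B2B, where 31 fell and 6 rose, against 22.6% and 21.2% of all genes. In A549 11 fell and 13 rose, against 25.0% and 23.9%. The medians were -1.21 in B2B and 0.20 in A549. LOXL2, which crosslinks collagen, stood at 254 and 252 CPM in A549_SP600125, against 159 and 156 CPM in A549_NT, and at 288 and 340.1 CPM in B2B_SP600125, against 796 and 814 CPM in B2B_NT. Its interaction was 2.04 ± 0.15 (edgeR adjusted p = 1.38e-06). VCAN, the proteoglycan versican, fell in B2B to 12.5 and 17.5 CPM, against 160.3 and 160.1 CPM in B2B_NT, and rose in A549 to 564 and 536 CPM, against 312 and 401 CPM in A549_NT. COL6A1, a chain of collagen VI, had log2 changes of 0.71 ± 0.14 in A549 and -0.75 ± 0.12 in B2B. COL4A4, a chain of basement membrane collagen that the list did not hold, had changes of 0.98 ± 0.20 in A549 and -1.20 ± 0.22 in B2B.

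Genes of TGF-β signalling and adhesion were called in both directions. Of 31 TGF-β, BMP and ID genes 12 were called higher in the interaction and 6 lower, shares above the 12.1% and 13.1% of all genes, and the median of 0.61 was 0.35 with the GC offset and 0.33 without the first B2B_SP600125 library. LTBP2 (chromosome 14, 74498183 to 74612378), a microfibril protein related to those that hold latent TGF-β, stood at 46.4 and 44.7 CPM in A549_SP600125, against 20.6 and 19.4 CPM in A549_NT, and at 17.7 and 24.0 CPM in B2B_SP600125, against 69.3 and 66.3 CPM in B2B_NT. TGFBR1, the type I receptor, fell in B2B to 76.0 and 91.2 CPM, against 317 and 311 CPM in B2B_NT, and had a small rise in A549 of 0.52 ± 0.20, and its opposite call held in 4 of 8 fits that left out a library. Of 22 integrin and adhesion genes 9 were called higher and 4 lower, against 12.1% and 13.1% of all genes. The count of 4 was 2 without the first A549_SP600125, the first A549_NT, the second B2B_SP600125 or the first B2B_NT library. ALCAM, an adhesion molecule of the immunoglobulin family, had log2 changes of 1.15 ± 0.17 in A549 and -0.89 ± 0.17 in B2B. ITGB4, the hemidesmosomal integrin, went the other way, at 110.1 and 99.9 CPM in A549_SP600125 against 398 and 356 CPM in A549_NT and 72.2 and 76.6 CPM in B2B_SP600125 against 50.0 and 52.9 CPM in B2B_NT. The desmosomal cadherin DSC3 had changes of 1.02 ± 0.15 in A549 and -1.03 ± 0.15 in B2B, and N-cadherin, CDH2, had changes of 0.71 ± 0.15 in A549 and -0.54 ± 0.13 in B2B.

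Sterol genes fell in B2B more than in A549. Of 25 genes of cholesterol synthesis and its control, 11 were called higher in the interaction and 1 lower, against 12.1% and 13.1% of all genes. The median was 0.43. In B2B 18 fell and 1 rose, against 22.6% and 21.2% of all genes. In A549 9 fell and 6 rose, against 25.0% and 23.9%. INSIG1, which holds the sterol sensor in the endoplasmic reticulum, stood at 39.4 and 40.2 CPM in A549_SP600125, against 25.6 and 26.0 CPM in A549_NT, and at 16.5 and 24.2 CPM in B2B_SP600125, against 42.1 and 43.6 CPM in B2B_NT. MSMO1, a sterol demethylase whose reads may be shared with a copy, had log2 changes of 0.58 ± 0.21 in A549 and -1.11 ± 0.21 in B2B, and STARD4, a cholesterol carrier, had changes of 0.97 ± 0.27 in A549 and -0.73 ± 0.25 in B2B. INSIG1 kept its opposite call in all 8 fits that left out a library, and MSMO1 and STARD4 each kept it in 4. The count of 11 was 7 to 10 when 1 library was left out, and 7 without the second A549_SP600125, the first A549_NT, or either B2B_NT library, and 6 without the second library of both NT groups.

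Among 25 NRF2 targets 6 were called higher in the interaction and 4 lower, against 12.1% and 13.1% of all genes. Without the second B2B_NT library, the one with A549 transcripts, 4 were called higher and 5 lower, and without the first B2B_SP600125 library 4 were called higher and 4 lower. ME1, the malic enzyme that makes NADPH, stood at 293 and 299.8 CPM in A549_SP600125, against 171 and 171 CPM in A549_NT, and at 23.8 and 28.6 CPM in B2B_SP600125, against 38.7 and 43.0 CPM in B2B_NT. GCLM, which takes part in glutathione synthesis and whose reads may be shared with a copy, had log2 changes of 0.68 ± 0.15 in A549 and -0.77 ± 0.16 in B2B. ABCC3, an efflux transporter, rose in both lines and more in B2B, with an interaction of -1.68 ± 0.17. AKR1C1 and AKR1C3, near copies of each other, were called higher in the interaction on B2B levels of 0.122 to 6.96 CPM, highest in the second B2B_NT library, the one with A549 transcripts, and the part of those transcripts in their calls was not separated further than by leaving that library out, after which AKR1C1 lost its call and AKR1C3 kept it.

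Inflammatory genes were called lower in the interaction more often than higher. Of 28 NF-κB targets, cytokines and chemokines, 9 were called lower in the interaction and 2 higher, against 13.1% and 12.1% of all genes. In A549 5 rose and 11 fell, against 23.9% and 25.0% of all genes. In B2B 12 rose and 7 fell, against 21.2% and 22.6%. The count of 9 was 5 without the first A549_NT, the second B2B_SP600125 or the first B2B_NT library and 3 of 22 among genes with mostly unique sequence. CXCL2, a neutrophil chemokine, stood at 8.34 and 6.62 CPM in A549_SP600125, against 17.1 and 17.8 CPM in A549_NT, and at 5.30 and 3.83 CPM in B2B_SP600125, against 1.10 and 1.51 CPM in B2B_NT. CXCL2 shares sequence with its paralogs, and 80.7% of its 31-base windows were unique. CXCL8, the related chemokine, had log2 changes of -0.93 ± 0.36 in A549 and 1.29 ± 0.43 in B2B, and lost its opposite call in each of the 8 fits that left out a library. ISG20, an interferon-induced nuclease, moved in opposite directions with an interaction of -2.71 ± 0.36, while of 37 interferon-stimulated genes 6 were called lower and 2 higher, against 13.1% and 12.1% of all genes.

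Targets of p53 mostly rose in both lines, and 10 moved in the same direction in both with a called difference in size. Of 28 p53 targets 21 rose in A549 and 17 in B2B, against 23.9% and 21.2% of all genes. There was 1 fall in each line, against 25.0% of all genes in A549 and 22.6% in B2B. In the interaction 13 were called higher and 1 lower, against 12.1% and 13.1% of all genes. Without the second library of both NT groups 6 were called higher and 0 lower. A549 is known to keep wild-type p53, and the SV40 large T antigen of B2B is known to bind p53. TP53INP1, a p53-induced stress protein, stood at 114 and 105 CPM in A549_SP600125, against 6.00 and 6.64 CPM in A549_NT, and at 114 and 101 CPM in B2B_SP600125, against 33.8 and 32.5 CPM in B2B_NT. MDM2, the ubiquitin ligase of p53, had an interaction of 1.15 ± 0.23, with a called rise in A549 and none in B2B. CDKN1A, the gene of p21, rose in both lines with an interaction of -0.25 ± 0.15 that missed the threshold. GADD45A, which takes part in growth arrest and repair, was the 1 member that moved in opposite directions, with log2 changes of 0.94 ± 0.18 in A549 and -0.72 ± 0.17 in B2B, and it kept that call in 7 of 8 fits that left out a library.

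Most genes of the integrated stress response rose in each line. Of 29 genes 17 rose and 3 fell in A549, against 23.9% and 25.0% of all genes, and 9 were not called. In B2B 17 rose and 1 fell, against 21.2% and 22.6%, and 11 were not called. In the interaction 6 were called higher and 6 lower, against 12.1% and 13.1% of all genes. Without the second B2B_SP600125 library 11 were called higher and 6 lower. PPP1R15A, which restarts translation, had log2 changes of -1.01 ± 0.13 in A549 and 0.60 ± 0.13 in B2B, and ATF5, a bZIP factor of this response, had changes of -0.70 ± 0.21 in A549 and 0.80 ± 0.22 in B2B. STC2, a secreted stress glycoprotein, rose in A549 and fell in B2B, at 109.9 and 110.3 CPM in A549_SP600125 against 60.5 and 60.6 CPM in A549_NT and 126 and 224 CPM in B2B_SP600125 against 512 and 544 CPM in B2B_NT. Nuclear genes of oxidative phosphorylation barely differed, with 1 of 33 called higher and 1 lower, shares below the 12.1% and 13.1% of all genes.

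**Figure D5:**
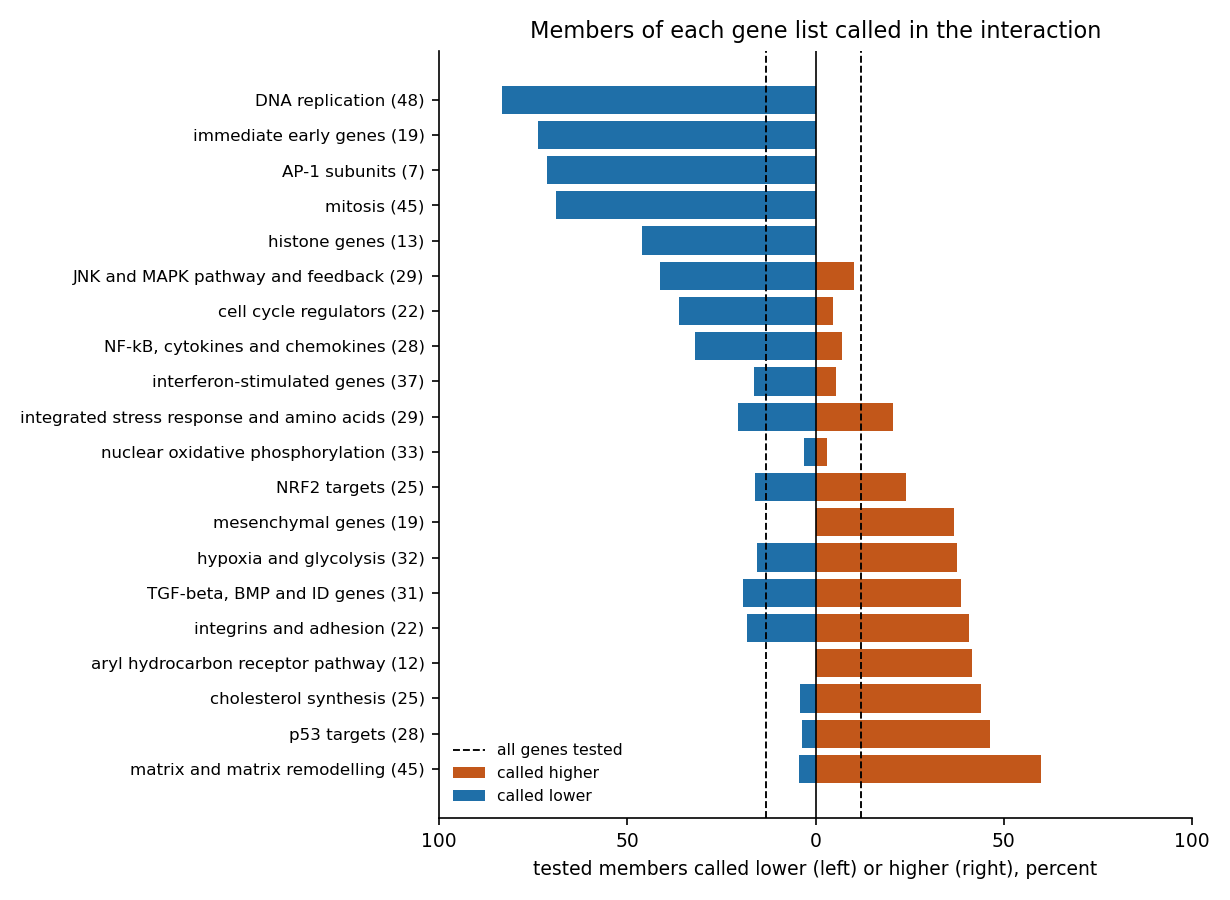
Share of the tested members of 20 gene lists (numbers tested in brackets), chosen by hand from the 43 examined, called in the interaction. Lower calls lie to the left of 0 and higher calls to the right, with dashed lines at the shares over all genes tested, 13.1% and 12.1%. Lists not shown include growth factor receptors and ligands, with 11 of 35 called lower and 9 higher. DNA replication, with 40 of 48 called lower, and matrix genes, with 27 of 45 called higher, lie at the ends.

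In untreated cells the levels of the opposite genes often differed between the lines, as did those of all genes tested. Of the 174 that fell in A549 and rose in B2B, 118 were called higher in A549_NT than in B2B_NT and 17 lower, against 30.4% and 26.5% of all genes tested. Of the 217 that rose in A549 and fell in B2B, 65 were called higher in A549_NT and 117 lower, against the same 30.4% and 26.5%. The share called higher was thus close to that of all genes. The NT libraries enter both this gap and the changes, so the counts are a description.

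For 5 of the genes described above, chosen after their values were seen, the change with SR11302 against the same NT libraries is given as well. For FOS the log2 change with SR11302 was -2.23 ± 0.21 in A549 and 0.57 ± 0.24 in B2B. For FOSB it was -4.78 ± 0.16 in A549 and -1.13 ± 0.22 in B2B, a negative value in both lines where SP600125 gave opposite signs. For NR4A1 it was -2.86 ± 0.15 in A549 and 0.60 ± 0.17 in B2B. CYP1B1 had 0.14 ± 0.11 in A549 and -0.35 ± 0.11 in B2B with SR11302, and HBEGF had 0.14 ± 0.18 in A549 and -0.56 ± 0.13 in B2B. The doses of the compounds differ and the controls are shared, so the values stand side by side without a test.

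Several of the largest fitted interaction differences among genes with at least 10 CPM in some group were in genes that 1 line hardly transcribed. RGS4, which limits G-protein signalling, had 20 and 37 reads in B2B_SP600125, against 1020 and 1142 reads in B2B_NT, while A549 had 4 and 4 reads with SP600125 and 0 and 0 without. ACTG2, a smooth muscle actin, had 7 and 4 reads in B2B_SP600125, against 335 and 398 in B2B_NT, with at most 3 reads in any A549 library. The counted reads of both genes thus lie mostly in B2B. The A549 part of each fitted difference rests on 4 reads or fewer per library. VAV3, a guanine nucleotide exchange factor, WDR72 and ST6GAL2, a sialyltransferase, had 0 reads in both B2B_SP600125 libraries and 1, 2 and 1 reads in the first B2B_NT library, and their calls rested on the 6, 12 and 23 reads of the second, the library with A549 transcripts, without which all 3 lost their calls. PRSS35, a protease-like protein, was better placed, at 14.3 and 14.5 CPM in A549_SP600125 against 0.667 and 1.33 CPM in A549_NT and 0.780 and 1.16 CPM in B2B_SP600125 against 8.57 and 7.94 CPM in B2B_NT, with an interaction of 6.94 ± 0.52 (edgeR adjusted p = 1.39e-06). LPL, the lipoprotein lipase, rose in B2B to 13.5 and 18.9 CPM, against 0.718 and 0.936 CPM in B2B_NT, with 0 reads in both A549_SP600125 libraries and 2 and 0 in A549_NT.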

How the data were processed

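RNA of A549 and B2B cells was extracted with TRIzol and made into poly(A)-selected libraries by the study. Per the labels and the study's methods, the authors aligned reads to hg38 with STAR 2.7.10a and counted them per gene with HTSeq 1.99.2. The deposited values are raw counts of reads per gene symbol, with no normalization. Neither the annotation release nor the strand setting is given in the sources used here, so antisense and overlapping genes may share counts. HTSeq's summary lines name no gene and were left out: reads in no feature were 15.1 to 17.7% of tallied reads in SP600125 libraries and 23.8 to 25.9% in NT libraries, ambiguous reads 1.21 to 1.34% and 1.94 to 2.03%, and multiply aligned reads 14.9 to 19.0% and 17.3 to 24.7%.

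Genes passed edgeR's filterByExpr by group. All 12 libraries in 6 groups were fitted with edgeR 4.0.16 in R 4.3.3 (TMM scaling, quasi-likelihood F test, 6 residual degrees of freedom), and p-values were adjusted by Benjamini-Hochberg over 16373 genes. The SE is the absolute log2 difference divided by the square root of F. CPM use TMM-scaled library sizes, except for the cell type markers, which use counted reads alone. Coordinates are those of GENCODE on hg38, and promoters those of RefSeq on GRCh38.p14. Of the gene symbols 24531 matched an annotation, 1370 of them by an older symbol. The share of a gene's 31-base windows found once in the genome marked genes whose reads may be shared with copies, and under 90% the value was treated as uncertain (among those named: FOSL1, VWF, KIF4A, CXCL2, DUSP8, MSMO1, GCLM, AKR1C1 and AKR1C3). The fit was tested before use on simulated counts, in which all libraries shared the same gene means apart from a set of changed genes. The simulation held no difference between the untreated lines and no GC trend, so it does not show how the fit handles these. Alternatives were other scalings, DESeq2 1.42.0, other filters and fold minimums, a GC offset (lowess, span 0.3), a replicate block and leaving out libraries.

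The genes named are the 12 opposite genes of each direction with the largest smaller fold among those with at least 10 CPM in the higher group of each line and opposite calls in every fit that left out a library, the 8 largest called interactions of each direction with at least 10 CPM in some group, the AP-1 subunits, up to 4 called members of each list and up to 6 opposite members of each list. MYC, KLF6, EGR1, ZFP36, PCNA, CYP1A1, NQO1, MDM2 and CDKN1A were added as known members of their lists after their values were seen. The members, lists and named genes were chosen with earlier results of these data known, so the counts on lists are descriptions. Some genes that met the rule are not reported here.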

Additional observations from a re-analysis of the deposited data

Results flagged for a closer look

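Results are given here because the change with SP600125 differed between the lines by edgeR's test of the interaction itself. Over all genes the test called 1984 higher and 2137 lower. Each value below is the interaction on the log2 scale, the A549 effect minus the B2B effect, of a gene that also moved in opposite directions with at least 10 CPM in the higher group of each line and in every fit that left out a library. No explanation was weighed.

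Among genes that rose in A549 and fell in B2B, the interaction was 4.81 for F2RL2, 3.50 for TFPI, 3.21 for CYP1B1, 3.21 for RBMS3, an RNA-binding protein, and 3.03 for HBEGF. It was 2.95 for ARHGAP18, 2.89 for LTBP2, 2.75 for LRIG1 and 2.73 for SEMA3C. It was 2.61 for PAQR5, a membrane progestin receptor, 2.18 for COL4A4 and 2.05 for DSC3. In these 12, as in 214 of the 217 genes of this direction, the SP600125 libraries did not overlap with the NT libraries in either line, which the choice of genes largely fixes.

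Among genes that fell in A549 and rose in B2B, the interaction was -4.37 for NR4A2, -4.35 for NR4A1 and -3.98 for FOS. It was -3.04 for RNF157, -2.97 for TGM2, -2.85 for SEMA6B and -2.77 for LSR. It was -2.23 for C1QTNF6, -1.96 for SPRY2, -1.95 for LRRC20, -1.94 for CEBPD and -1.82 for FOXM1. These 12 did not overlap in either line, nor did any of the 174 genes of this direction, which the choice of genes again largely fixes.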

How the results depend on the processing

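The interaction called 4121 genes, 2141 with a fold minimum of 1 on the log2 scale, 2745 to 3678 when 1 library was left out (2745 without the first A549_SP600125 library) and 2264 without the second library of both NT groups, an alternative chosen after seeing the data. DESeq2 called 4150, and the fit without a filter on low counts 4835. The fit on only the 8 libraries compared called 5050, 2680 higher and 2370 lower, against 1984 higher and 2137 lower in the main fit. Fewer libraries leave fewer degrees of freedom, yet this fit called more genes, and no cause of these differences was tested. The fold minimum of 1 gave 4435 calls in A549 and 3798 in B2B, 69 genes that rose in A549 and fell in B2B and 43 that did the reverse, and 25 replication, 14 mitotic and 5 cholesterol genes. With no fold minimum 342 genes fell in A549 and rose in B2B. Leaving out 1 library gave 6996 to 8009 calls in A549, 6082 to 7100 in B2B, 145 to 215 and 132 to 170 opposite genes, 24 to 33 mitotic genes and 7 to 10 cholesterol genes. Without the second library of both NT groups 19 mitotic and 6 cholesterol genes were called. JUND had 0.061 with the GC offset and 0.063 with the block and the offset together, against a called value below 0, and the cause was not tested. The naming rule, without the genes added later, gave 194 genes, of which 192 were called in the interaction. The rule largely fixes this, since all its parts but the AP-1 subunits asked for a call. Of the 192, 150 were called in every alternative that tested them. The GC offset lost 10 calls, DESeq2 6, and leaving out 1 library 7 to 22.

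Deviations of same-numbered libraries from their group means correlated at -0.198 to 0.0628. With 2 libraries per group the sign of this correlation depends on the numbering, so whether libraries of different groups were paired was not settled. With a replicate block the interaction called 3816 genes (3818 with the GC offset too), with 209 and 170 opposite genes, and 2 named genes lost their call. Crossing the A549_NT numbers, chosen after seeing the data, gave 3747.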

Other observations

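Several gene groups outside the comparisons above also differed between the lines. Of 19 FOXO and nutrient stress targets 13 rose and 1 fell in A549, against 23.9% and 25.0% of all genes. In B2B 10 rose and 2 fell, against 21.2% and 22.6%. In the interaction 8 were called higher and 2 lower, against 12.1% and 13.1% of all genes. Without the first A549_NT library 4 were called higher and 1 lower. FBXO32, the ubiquitin ligase atrogin-1, had log2 changes of 2.68 in A549 and 1.01 in B2B. CCNG2, an atypical cyclin tied to cell cycle exit, had 3.24 in A549 and 1.37 in B2B. Of 32 hypoxia and glycolysis genes 12 were called higher and 5 lower, against 12.1% and 13.1% of all genes. In B2B 19 fell, against 22.6% of all genes. BNIP3L, a mitophagy receptor, rose in A549 with a log2 change of 1.92 and was not called in B2B, at 0.02.

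Among WNT and Notch genes 3 of 32 moved in opposite directions, against 2.39% of all genes tested. LGR4, a receptor of R-spondins, had log2 changes of 1.28 in A549 and -0.79 in B2B. WNT5B, a WNT ligand near 1 CPM in A549, had 2.03 in A549 and -1.77 in B2B. NRARP, a feedback inhibitor of Notch, had -0.73 in A549 and 1.28 in B2B. KITLG, the ligand of the receptor KIT, rose in A549 with a log2 change of 2.11 and was not called in B2B, at -0.44. BMF, a BH3-only gene, rose in both lines, with 3.89 in A549 and 2.59 in B2B.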
